A study of Mus musculus with 10 samples.

Results

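The 7 chemokine ligand genes Ccl5, Ccl3, Ccl4, Cxcl10, Cxcl9, Cxcl16 and Xcl1 were followed in the RNA of regulatory T cells (Treg) in which the Tfam gene was targeted for deletion. Its protein, TFAM, packages mitochondrial DNA and takes part in the transcription of that DNA. The ligand genes are 7 of the 22553 Ensembl genes in the count table, found by symbol, and all 7 had a row. They were selected on their knockout (KO) against control values in these same libraries, which were known when the list was made, so every KO against control value of the 7 genes below is a description and carries no test.

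Control libraries came from Tfam fl/+ Foxp3 Yfp-Cre/+ mice and KO libraries from Tfam fl/fl Foxp3 Yfp-Cre/+ mice, all female C57BL/6 littermates whose age the labels do not give. The control animals also carried 1 floxed Tfam allele and the Cre, and Cre was driven from the Foxp3 gene, so it acts in cells that turn on Foxp3. Foxp3 lies on the X chromosome, so heterozygous females keep Treg that do not express the Cre allele; these were left out by sorting YFP+ cells. Each library was a pool from 2 to 3 mice of spleen and lymph node cells, with 3 libraries per genotype, and the labels give no date or litter for a pool. Library totals ran from 21419772 to 27490253 counts in control and from 19087757 to 23794028 in KO. Tfam itself (ENSMUSG00000003923) lay between 25.9 and 42.4 CPM (read counts scaled to library size with TMM factors) in control and between 14.4 and 16.5 CPM in KO. Its log2 fold change was -1.09 ± 0.17 (SE; edgeR, adjusted p = 0.02). That call was lost in 5 of 12 alternative fits, each with libraries left out. TFAM protein was not examined here. The 8 Treg markers, Foxp3 among them, summed to between 3119 and 3375 CPM in control and between 3055 and 3278 CPM in KO.

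Chemokines are small secreted proteins that draw leukocytes bearing the matching receptor along a gradient. The CC ligands CCL5, CCL3 and CCL4 bind CC chemokine receptors and are made by activated and cytotoxic T cells, NK cells and macrophages. CXCL9 and CXCL10 are induced by interferon and both bind CXCR3, the receptor of T-bet-expressing T cells. CXCL16 is made as a membrane-bound protein, is shed by ADAM proteases and binds CXCR6, and XCL1 is a C chemokine that attracts XCR1-bearing dendritic cells. In Treg, ligands of this kind can bring target cells close, while the receptors place the Treg themselves.

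Cxcl10 and Cxcl9 lie close to each other on mouse chromosome 5, answer to the same receptor and had different values in KO, so their promoters are shown first. Both run 5′ to 3′ along the gene's strand from 250 bases before the transcription start to 50 bases after it, from RefSeq on GRCm38.p6, at chr5:92348840-92349139 (minus strand) for Cxcl10 and chr5:92328030-92328329 (minus strand) for Cxcl9. Capitals mark matches, on either strand, to an interferon-stimulated response element core (ISRE, GAAANNGAAA), a kB-type motif (GGGANNNNCC), an AP-1 motif (TGANTCA) and a CCAAT box (CCAAT), which were chosen after both sequences had been read.
Cxcl10: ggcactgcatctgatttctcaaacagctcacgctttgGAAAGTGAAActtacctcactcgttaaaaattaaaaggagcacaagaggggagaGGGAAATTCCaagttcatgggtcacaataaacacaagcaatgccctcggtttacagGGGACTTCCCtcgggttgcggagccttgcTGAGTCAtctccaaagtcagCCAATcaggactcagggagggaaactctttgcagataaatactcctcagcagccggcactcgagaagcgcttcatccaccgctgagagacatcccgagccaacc
Cxcl9: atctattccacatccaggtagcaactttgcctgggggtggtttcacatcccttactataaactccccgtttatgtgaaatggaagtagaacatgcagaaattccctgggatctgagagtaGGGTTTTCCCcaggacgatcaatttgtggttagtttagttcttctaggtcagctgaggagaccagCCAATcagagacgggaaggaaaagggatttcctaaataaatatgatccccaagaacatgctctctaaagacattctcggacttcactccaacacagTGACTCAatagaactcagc
The Cxcl10 window held 1 ISRE match, GAAAGTGAAA, which starts 213 bases before the start site. It also held 2 kB-type matches, GGGAAATTCC and GGGACTTCCC, 1 AP-1 match (TGAGTCA) and 1 CCAAT box. The Cxcl9 window held no ISRE match, 1 kB-type match on the opposite strand (GGGTTTTCCC), 1 AP-1 match that starts 31 bases after the start site (TGACTCA) and 1 CCAAT box. None of the matches overlapped another. Of 32817 RefSeq promoters of the same 300-base length, 3.43% held the ISRE core, 20.7% the kB-type motif, 7.81% the AP-1 motif and 37.4% a CCAAT box. A match shows only that the letters are present. The promoter table matched 4 of the 7 genes, and the windows of Ccl3 and Xcl1 held 0 of these motifs.

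Ccl5 (ENSMUSG00000035042) was the member with the most counts, and it fell 3.28-fold in KO. In order of library number, the control libraries held 9.22, 13.1 and 10.1 CPM and the KO libraries 4.09, 3.31 and 2.41 CPM, from 240, 289 and 277 counts against 97, 68 and 46. Every KO library was therefore below every control library. The group means were 10.8 ± 2.05 CPM in control and 3.27 ± 0.841 CPM in KO (SD, n = 3 each), and the log2 fold change of the fit was -1.71 ± 0.22 (SE). Within same-numbered libraries the log2 ratio of KO to control was -1.17, -1.99 and -2.07 for numbers 1 to 3. The smallest of these, for number 1, joined the lowest control library to the highest KO library. Leaving out each library in turn moved the log2 fold change of Ccl5 between -1.91 and -1.54. Without both libraries numbered 2 it was -1.55. In these bulk samples, fewer cells that make a chemokine and less of its RNA per cell cannot be told apart.

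Cxcl10 (ENSMUSG00000034855), the interferon-induced CXCR3 ligand, had the lowest fitted value of the tested ligands and fell 4.34-fold. The control libraries 1 to 3 held 4.49, 3.64 and 2.01 CPM (117, 80 and 55 counts) and the KO libraries 0.717, 1.07 and 0.525 CPM (17, 22 and 10 counts). Control replicate 3 was the lowest control library and was still above the highest KO library. The means were 3.38 ± 1.26 and 0.771 ± 0.277 CPM (SD, n = 3 each), with a log2 fold change of -2.12 ± 0.38 (SE). The log2 ratios within same-numbered libraries were -2.65, -1.76 and -1.94. The direction held whichever library was left out, with log2 fold changes between -2.41 and -1.85. In the RefSeq gene table Cxcl10 lies inside the span of Art3, and reads of the 2 genes could be confused only where exons overlap. Art3 had 40, 47 and 32 counts in control and 17, 23 and 19 in KO, a log2 fold change of -0.77 that did not pass (edgeR, adjusted p = 0.364), and its part in the Cxcl10 value was not tested.

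Cxcl9 (ENSMUSG00000029417), also a CXCR3 ligand, did not share this pattern. It had 21, 5 and 14 counts in control replicates 1 to 3 and 21, 21 and 13 in KO replicates 1 to 3, or 0.807, 0.227 and 0.511 CPM against 0.886, 1.02 and 0.682 CPM. The groups overlapped, since control replicate 1 was above KO replicate 3, and control replicate 2 stood lowest of all 6 libraries. The log2 fold change was 0.72 ± 0.43 (SE), with same-numbered log2 ratios of 0.14, 2.17 and 0.42. Without control replicate 2 the log2 fold change was 0.39, and without both libraries numbered 2 it was 0.26. Counts of the 2 genes within a library do not depend on how libraries are scaled. There were 5.57, 16.0 and 3.93 Cxcl10 counts for each Cxcl9 count in control replicates 1 to 3 and 0.81, 1.05 and 0.769 in KO replicates 1 to 3. The lowest control ratio was thus above the highest KO ratio, although the ratio of 16.0 rests on 5 Cxcl9 counts.

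**Figure D1:**
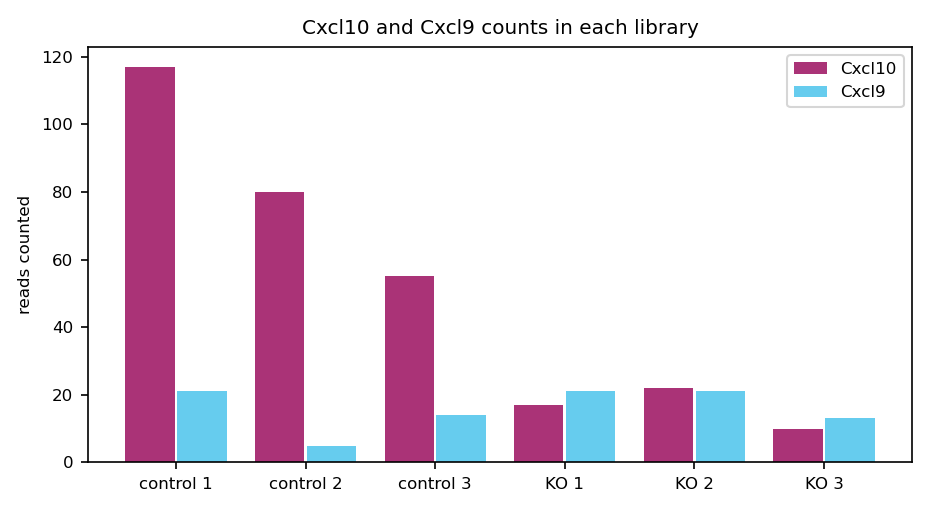
Reads counted for Cxcl10 and Cxcl9 (vertical axis) in each of the 3 control and 3 KO libraries (horizontal axis). Cxcl10 bars run from 55 to 117 in control and from 10 to 22 in KO, whereas Cxcl9 bars run from 5 to 21 in control and from 13 to 21 in KO.

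Cxcl16 (ENSMUSG00000018920), the membrane-bound ligand of CXCR6, was low throughout. Its counts were 23, 15 and 37 in control replicates 1 to 3 and 16, 8 and 11 in KO replicates 1 to 3, which gave 0.883, 0.682 and 1.35 CPM against 0.675, 0.389 and 0.577 CPM. The groups did not overlap, but the gap was small, since control replicate 2 and KO replicate 1 were nearly level. The log2 fold change was -0.83 ± 0.37 (SE). The same-numbered log2 ratios were -0.39, -0.81 and -1.23. Without control replicate 3, the highest library, the log2 fold change was -0.51. The neighbouring gene Zmynd15 overlaps Cxcl16 in the RefSeq table and had 14, 4 and 6 counts in control and 8, 15 and 9 in KO.

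Xcl1 (ENSMUSG00000026573), the ligand of XCR1, had nearly the same level in both genotypes. It had 15, 21 and 18 counts in control replicates 1 to 3 and 15, 17 and 13 in KO replicates 1 to 3, or 0.576, 0.954 and 0.657 CPM against 0.633, 0.827 and 0.682 CPM. The KO values lay within the control range, and the libraries numbered 2 were the highest of both. The log2 fold change was -0.02 ± 0.32 (SE), and the depth-scaled ratio of summed counts, control over KO, was 1.01 (exact binomial 95% interval 0.666 to 1.53, counting error only). At this depth a change within that interval could not be seen.

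Ccl3 (ENSMUSG00000000982) and Ccl4 (ENSMUSG00000018930), which encode the CC ligands MIP-1 alpha and MIP-1 beta, were close to the limit of detection. Ccl3 had 1, 3 and 3 counts in control replicates 1 to 3 and 0, 1 and 0 in KO replicates 1 to 3, and Ccl4 had 3, 5 and 6 against 2, 0 and 1. A count of 3 equals between 0.11 and 0.157 CPM in these libraries, and neither gene passed the filter on low counts. Their summed counts were 7 against 1 for Ccl3 and 14 against 3 for Ccl4. The depth-scaled ratio of control to KO was 5.88 for Ccl3 (exact binomial 95% interval 0.755 to 265) and 3.92 for Ccl4 (1.09 to 21.3). The interval of Ccl3 includes equal levels and that of Ccl4 only just leaves them out, and both cover counting error alone. The RefSeq spans of the 2 genes overlap, and the strand setting of the counting is not given in the sources used here, so reads of one could be counted for the other.

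**Figure D2:**
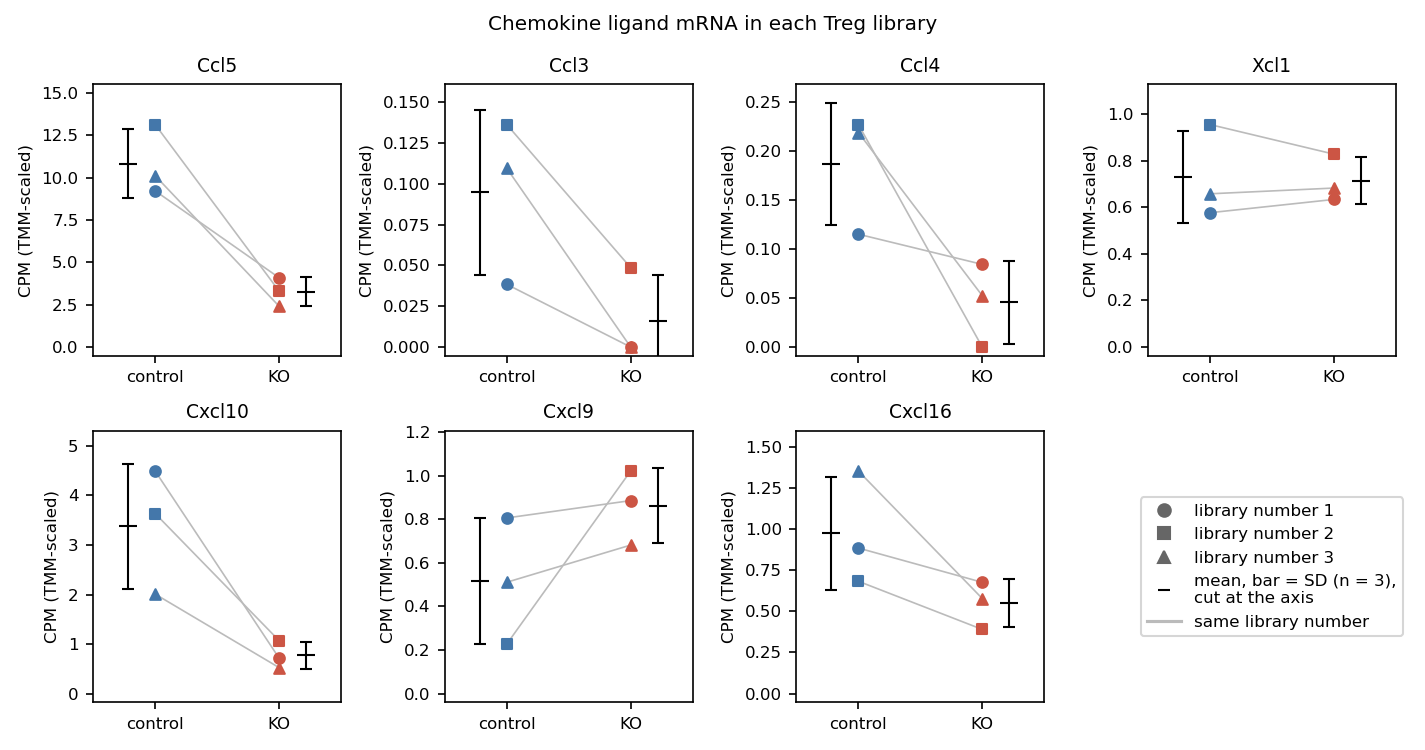
TMM-scaled CPM (vertical axes, each with its own scale) of the 7 chemokine ligands in 3 control and 3 KO libraries, with a symbol for each library number and grey lines between libraries of the same number. Black marks are means with SD; Ccl5 and Cxcl10 show separated groups, Xcl1 and Cxcl9 overlap, and Ccl3 and Ccl4 rest on 7 and 14 control counts.

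Of the 7 genes, 5 passed the filter on low counts and 2 (Ccl3 and Ccl4) did not. Of those 5, 2 (Ccl5 and Cxcl10) were called lower in KO by edgeR's quasi-likelihood test (adjusted p under 0.05 over all tested genes), 0 higher, and 3 did not pass; in the whole fit of 11990 genes 1.39% were lower and 0.1% higher. The same 2 were called with the replicate number as a block, where 4.39% of tested genes were lower and 1.97% higher. The Cxcl10 call was lost without control replicate 1 (log2 fold change -1.85), control replicate 2 (-2.06), KO replicate 1 (-2.06), KO replicate 2 (-2.41) or KO replicate 3 (-1.92), and in limma-voom (-2.05). Without both libraries numbered 2 neither was called (Ccl5 -1.55, Cxcl10 -2.36). The fits with libraries left out did not use the block. KO lay below control without overlap in 3 of the 5, against 10.4% of tested genes, and below control in all 3 same-numbered pairs in the same 3 (Ccl5, Cxcl10 and Cxcl16), against 23.7%. Because the genes were chosen with these values known, nothing is read from the counts. Across the 5 tested ligands the fitted log2 fold changes ran from -2.12 (Cxcl10) to 0.72 (Cxcl9), with a median of -0.83 beside -0.004 for all tested genes. Levels of the 7 genes were not compared with each other, because transcript lengths were not used here.

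**Figure D3:**
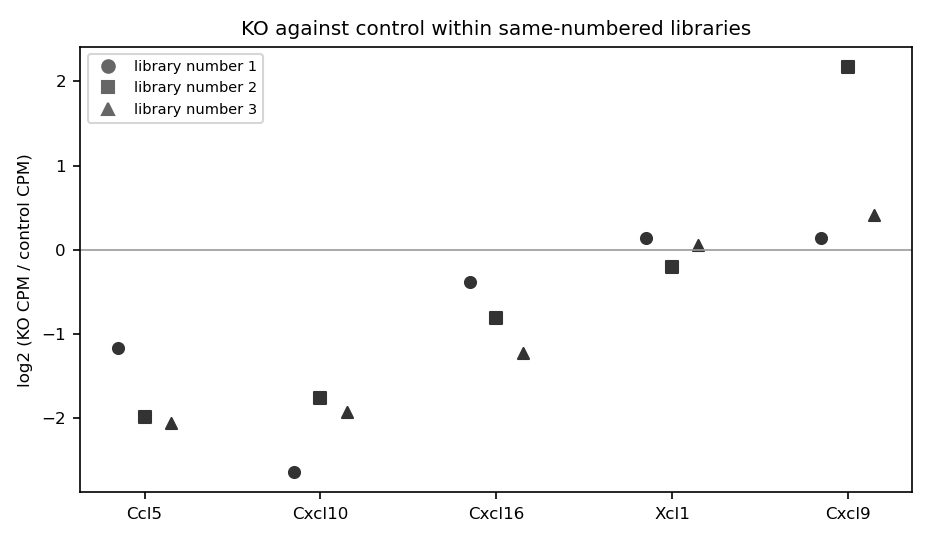
Log2 ratio of KO to control CPM (vertical axis) within libraries of the same number for the 5 tested chemokine ligands (horizontal axis). Ccl5, Cxcl10 and Cxcl16 lie below 0 in all 3 pairs, Xcl1 lies on both sides of 0, and Cxcl9 lies above 0, with its highest value of 2.17 for number 2.

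The genes whose levels followed each tested ligand most closely over the 6 libraries were sought among 9047 genes that averaged 5 CPM or more. For Ccl5 these were Adora2a (Pearson r = 0.999 of log2 CPM), Prelid3b (0.993) and Mta3 (0.992). For Cxcl10 they were Ccrl2 (0.998), Aqp3 (0.995) and Dsp (0.992). Of these 6, only Ccrl2 was itself called in the fit, with a log2 fold change of -1.18. Those of Aqp3 and Dsp were -0.67 and -1.05, beside -2.12 for Cxcl10. Adora2a, Prelid3b and Mta3 stood at -0.34, -0.22 and -0.13, beside -1.71 for Ccl5. A high correlation thus did not mean a change of like size. The closest gene was Tut1 for Cxcl9 (0.989), Kcnq5 for Cxcl16 (0.995) and Blm for Xcl1 (0.987), followed by Arih2 and Mmab, by Max and P2ry10, and by Stoml1 and Ccne1. These correlations describe 6 libraries that also share their genotype contrast and library numbers, and they carry no test.

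Of 8 receptor genes that read these ligands 4 passed the filter, 3 fell, 0 rose and 1 did not pass, beside 1.39% of all tested genes called lower and 0.1% higher. Their median log2 fold change was -1.72, beside -0.004 for all tested genes. The receptors and the related gene lists below were also chosen with earlier results of these data known. Their counts and p-values are therefore descriptions and no independent test. Cxcr3, which binds CXCL9 and CXCL10, was at 39.8, 54.8 and 41.2 CPM in control and 6.92, 7.79 and 6.03 CPM in KO. Cxcr6, which binds CXCL16, was at 5.65, 7.27 and 5.11 CPM in control and 1.73, 2.14 and 1.94 CPM in KO (log2 fold change -1.63 ± 0.20, SE; edgeR, adjusted p = 0.00798). In both the groups were apart. Cxcr6 was not called without KO replicate 1 (edgeR, adjusted p = 0.066). Ccr1, a further receptor of CCL3 and CCL5 named after its values were seen, had 11, 9 and 13 counts in control and 0, 1 and 0 in KO. That is a depth-scaled ratio of 27.7 (exact binomial 95% interval 4.64 to 1127), and it was below the filter; with no filter on low counts it was called lower (edgeR, adjusted p = 0.0259). Ccr3, an eosinophil receptor that also binds CCL5, showed no such pattern, with 104, 211 and 171 counts in control and 105, 237 and 87 in KO (log2 fold change 0.05 ± 0.42, SE).

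Of 16 regulators known to act on chemokine genes, all 16 were tested, 2 fell, 0 rose and 14 did not pass, with a median log2 fold change of -0.11. Of all tested genes 1.39% were lower, or 4.39% with the block. Tbx21, which encodes T-bet, the factor behind Cxcr3 expression and type 1 programmes, was at 5.45, 7.63 and 4.97 CPM in control and 1.86, 1.31 and 1.31 CPM in KO (log2 fold change -1.99 ± 0.24, SE; edgeR, adjusted p = 0.00798). Ifng, the interferon that induces Cxcl9 and Cxcl10, had 94, 104 and 62 counts in control and 27, 24 and 18 in KO, and its groups were also apart. The Ifng call (edgeR, adjusted p = 0.0377) was lost without any of control replicate 1 (0.103), control replicate 2 (0.115), KO replicate 1 (0.181), KO replicate 2 (0.125) or KO replicate 3 (0.154). Runx3, a partner of T-bet, had a log2 fold change of -0.35 ± 0.09 (SE; edgeR, adjusted p = 0.15), and passed the threshold once the replicate number was a block (edgeR, adjusted p = 0.00825). Irf1 had a log2 fold change of -0.03 ± 0.14, Irf9 of 0.02 ± 0.08 and the NF-kB subunit Rela of 0.05 ± 0.06 (SE), and none of these 3 passed. Other regulators lay lower in KO without overlap but did not pass, with or without the block. These were Ifngr1 (-0.21 ± 0.07), Relb (-0.19 ± 0.06) and Nfkb2 (-0.16 ± 0.07, SE). Of the 16 regulators, 6 lay below control without overlap and 0 above, beside 10.4% of all tested genes below. Runx3, Irf1, Irf9, Rela, Ifngr1, Relb and Nfkb2 were named after their values were seen.

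Of 4 genes that shed, cleave or store chemokines, 1 fell and 3 did not pass, with a median log2 fold change of -0.16 (1.39% of all tested genes were lower). Srgn, which encodes the granule proteoglycan serglycin that binds chemokines such as CCL3 in secretory granules, was at 331, 371 and 382 CPM in control and 252, 273 and 271 CPM in KO (log2 fold change -0.45 ± 0.08, SE; edgeR, adjusted p = 0.0275). Its groups did not overlap. The call was lost without control replicate 2 (edgeR, adjusted p = 0.12), control replicate 3 (0.0688), KO replicate 1 (0.175), KO replicate 2 (0.0892) or KO replicate 3 (0.0933). Adam10 and Adam17, the CXCL16 sheddases, and Dpp4, which trims CXCL10 and CCL5, had log2 fold changes of -0.13, -0.02 and -0.19.

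**Figure D4:**
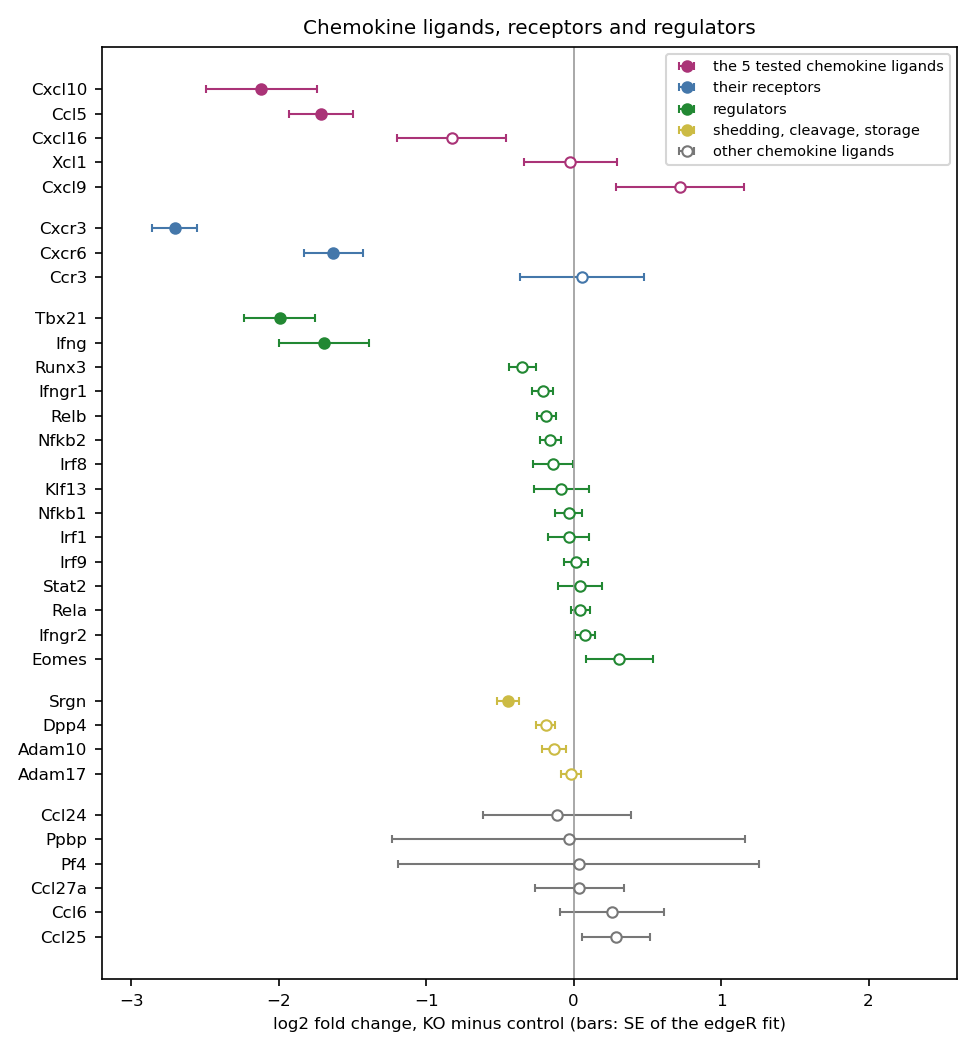
Log2 fold change of KO against control (horizontal axis, bars show SE) for the 5 tested chemokine ligands, for those receptors, regulators and handling genes whose values are reported here, and the 6 other tested chemokine ligands (vertical axis). Filled symbols are called genes; among the 5 ligands these are Cxcl10 and Ccl5, and the open symbols of Ppbp and Pf4 have the widest bars, with SE of 1.20 and 1.23.

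Among 31 further chemokine ligands, 6 passed the filter, 0 were called in edgeR (0 also in DESeq2, limma-voom and with the replicate block, and 0 at an unadjusted p under 0.05), and 8 had no count in any library. Of all tested genes 1.39% were lower and 0.1% higher in edgeR, so nothing is read from 0 calls among 6 genes. The median log2 fold change of the 6 was 0.04. Ccl25, a ligand of the gut homing receptor CCR9, had 56, 77 and 70 counts in control and 68, 72 and 69 in KO. The platelet chemokines Ppbp and Pf4 followed the library number in both genotypes. Ppbp had 66, 0 and 139 counts in control replicates 1 to 3 and 63, 0 and 94 in KO replicates 1 to 3, and Pf4, named after its values were seen, had 30, 0 and 133 against 36, 1 and 91.

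Several ligands are also made by macrophages, and macrophage RNA was present in every library. The 12 macrophage markers, none of them at 0 in any library, summed to 444, 967 and 524 CPM in control replicates 1 to 3 and to 590, 1393 and 511 CPM in KO replicates 1 to 3. Without the block 0 of the 12 were called, beside 1.39% of all tested genes lower and 0.1% higher. In that fit 0 of the 12 had a log2 fold change below 0, and their median was 0.36. With the block 5 of them (Adgre1, Cd68, Vcam1, Slc40a1 and Cd14) were higher in KO, at log2 fold changes between 0.37 and 0.58, beside 1.97% of all tested genes. The sum was higher in KO within numbers 1 and 2 and lower within number 3. Both libraries numbered 2 stood highest. KO replicate 2 was also the highest KO library for Cxcl10 and Cxcl9, whereas control replicate 2 was the lowest control library for Cxcl9. The NK markers summed to 25.5 to 30.4 CPM in control and 27.7 to 40.9 CPM in KO. Tyrobp was the largest part of this sum in every library and, like the macrophage sum, peaked in number 2 of each genotype. It made up 16.6 of the 30.4 CPM there in control and 25.9 of the 40.9 CPM there in KO. Elsewhere Tyrobp lay between 11.1 and 12.1 CPM, and which cells its RNA came from was not tested. The defining NK receptor gene Ncr1 had 1, 0 and 2 counts in control and 2, 0 and 0 in KO. Of the 8 NK markers, 2 lay above control without overlap in KO and 0 below. Klrd1 had 4, 6 and 1 counts in control and 8, 9 and 6 in KO, and was below the filter. Prf1 was at 8.91, 9.32 and 9.86 CPM in control and 10.0, 10.7 and 10.6 CPM in KO. Klrd1 and Prf1 were picked out for this separation. Of the 4 tested NK markers 0 were called, with or without the block, and 1 had a log2 fold change below 0. The CD8 T cell markers summed to 14.4 to 16.3 and 13.5 to 19.0 CPM, the 7 dendritic cell markers other than Bst2 to 4.78 to 11.6 and 4.93 to 13.97 CPM, the B cell markers to 18.5 to 24.8 and 14.2 to 21.2 CPM, and the neutrophil markers to 0.876 to 2.32 and 0.734 to 2.97 CPM. Bst2, listed with the dendritic cell markers, is an interferon-stimulated gene that other cells also express; with it the 8 markers summed to 119 to 174 and 103 to 139 CPM. Outside the macrophage list, the block called the Treg marker Ctla4 (log2 fold change -0.22) and the B cell marker Cd22 (-0.84). Both were lower in KO, beside 4.39% of all tested genes. The part of other cell types in the chemokine values was not tested.

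**Figure D5:**
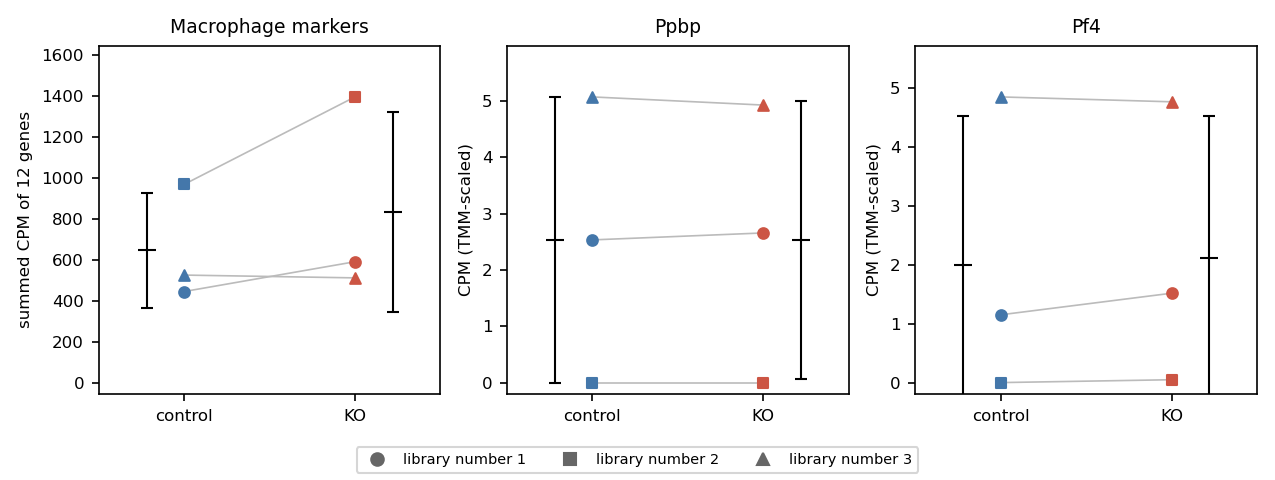
Summed CPM of 12 macrophage markers and CPM of Ppbp and Pf4 (vertical axes) in the control and KO libraries, with a symbol for each library number, grey lines between same numbers and means with SD (n = 3 each). The macrophage sum is highest in number 2 of both genotypes (967 and 1393), where Ppbp has 0 counts and Pf4 0 and 1.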

How the data were processed

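Poly(A) RNA of YFP+ Treg was sequenced in 3 control and 3 KO libraries; 4 ATAC libraries were not analysed here. The authors deposited raw read counts per Ensembl gene, made with HTSeq per the labels. Builds mm9 and mm10 and, beside HTSeq, the tools HISAT2, Bowtie2, Cufflinks, SAMtools, DESeq2 and bedtools appear without a role in the submitters' processing notes; neither annotation nor strand setting is given in the sources used here. Symbols matched 22522 of 22553 IDs.

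Counts were tested with edgeR 4.0.16 (R 4.3.3): filterByExpr (minimum count 10, minimum total 15; 11990 genes tested), TMM scaling and the quasi-likelihood F test, Benjamini-Hochberg over all tested genes, called at an adjusted p under 0.05. SE come from the F statistic. Alternatives used DESeq2 1.42.0, limma 3.58.1, RLE scaling, no filter, a replicate block and left-out libraries. The test was run on simulated counts of independent libraries. That run does not cover links between same-numbered libraries. Deviations of same-numbered libraries from their group means correlated at 0.327, 0.561 and 0.55 (log2 of CPM + 0.5). The numbers were therefore taken to pair libraries, in the same-numbered ratios and in the block fit. The main fit and the other alternatives did not use the pairing. Libraries of 1 group differed beyond sampling noise (chi-square per degree of freedom 8.75 to 27.4). Nothing in the labels says that pools were independent beyond their mice, so p-values reflect only the spread among these pools, which may be technical.

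Named genes were Tfam, the 7 ligands, from each related list up to 4 called genes or the 2 most abundant, and the 3 genes closest to each tested ligand. The values of 2 list genes are not reported here. Members, lists and alternatives were chosen with earlier results of these data known.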

Additional observations from a re-analysis of the deposited data

How the results depend on the processing

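All 12 alternatives kept the sign of Ccl5, Cxcl10, Cxcl9, Cxcl16, Ccl25, Cxcr3, Cxcr6, Tbx21, Ifng, Srgn and Tfam. Xcl1, at -0.02 in the fit, turned to 0.0135 in limma-voom and 0.0864 without both libraries numbered 2; with 1 library left out it lay between -0.154 and 0.205, above 0 without control replicate 2, KO replicate 1 or KO replicate 3. Ppbp, at -0.03, turned to 0.0087 in DESeq2 and 0.0071 with the replicate block; with 1 library left out it lay between -0.917 and 0.945, above 0 without control replicate 3 or KO replicate 2. The cause was not tested.

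Calls over the whole table were 167 lower and 12 higher in KO. These counts were 263 and 72 in DESeq2, 526 and 236 with the replicate block and 54 and 0 without both libraries numbered 2; 3 were higher in limma-voom. With 1 library left out, 26 (without KO replicate 1) to 166 were lower and 0 to 10 higher. Of the chemokine ligands described, 2 were called, 1 in limma-voom, 0 without both libraries numbered 2 and 1 to 2 with 1 library left out. The 2 called regulators became 1 in limma-voom and 1 without both libraries numbered 2, and 1 to 2 with 1 library left out. The 3 called receptors became 1 to 2, and the 1 called handling gene 0 to 1, with 1 library left out, and the latter 0 without both libraries numbered 2. The replicate block changed no other call than that of Runx3 among the ligands, receptors, regulators and handling genes. Fits without a library have fewer samples. Depth limits Ccl3 and Ccl4, whose floor of 3 counts lies at 0.11 to 0.157 CPM.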

Other observations

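Of the 25 further chemokine ligands below the filter, 3 that had more counts in control than in KO are described here. Before depth scaling, summed counts were also higher in control than in KO for Ccl22 (7 and 6), Ccl12 (5 and 4) and Cxcl11 (3 and 0). The same held for Cxcl3 (2 and 0), Ccl11 (2 and 0) and Cxcl1 (1 and 0). Others did not share this direction: Ccl9 (summed counts 1 in control and 4 in KO), Cx3cl1 (2 and 4), Ccl17 (6 and 7), Cxcl13 (6 and 7), Ccl28 (3 and 4) and Cxcl5 (0 and 1). Ccl8 (5 and 5) and Cxcl12 (3 and 3) were level. Ccl20, a ligand of CCR6, had 14, 10 and 3 counts in control replicates 1 to 3 and 3, 0 and 0 in KO replicates 1 to 3, a depth-scaled ratio of control to KO of 7.55 (exact binomial 95% interval 2.32 to 38.9). Cxcl2, a neutrophil attractant, had 15, 5 and 6 counts against 0, 4 and 0 (ratio 5.46, interval 1.89 to 21.5). Ccl1, a ligand of CCR8, had 6, 10 and 4 counts against 6, 1 and 0 (ratio 2.40, interval 0.974 to 6.71). The genes of this paragraph were chosen after a look at their values, and the intervals cover counting error only. With no filter on low counts, Ccl20, Cxcl2 and Ccl1 were not called in edgeR (adjusted p = 0.31, 0.414 and 0.666).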
